A study of Mus musculus with 10 samples.

Results

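Expression of 10 detoxification genes was examined in mouse spleen erythroblasts, the precursors of red blood cells, 11 days after 5-FU, a chemotherapy drug that depletes dividing blood precursors. The genes were the 10 named rows of a count table of 53465 Ensembl genes: the glutathione transferases Gstm5, Gstm1, Gstp1, Gsta4 and Gsto1, the microsomal transferases Mgst3 and Mgst1, the exporters Abcc4 and Abcc1, and the epoxide hydrolase Ephx1. The rule is a list of names and uses no measured value, but the list was drawn up with earlier results of these data known. The 10 libraries came from C57BL/6 mice of 4 genotypes, each given 5-FU: wild type (n = 2), miR-144/451-/- (n = 2), Nrf2-/- (n = 3) and Nrf2/miR-144/451-/- (n = 3). These groups are called wild type, miR-144/451-null, Nrf2-null and double-null below. The labels give neither the age of the mice nor the number behind a library, and they do not say that replicates were separate mice, so p-values measure the spread between libraries.

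Glutathione transferases join the thiol of glutathione to reactive or oxidised compounds, which makes them soluble and less reactive. ATP-driven pumps of the ABCC family then move the conjugates out of the cell, and epoxide hydrolases open reactive epoxides with water. Many genes of this set are textbook targets of Nrf2, a transcription factor that binds antioxidant response elements near antioxidant and detoxification genes. Red cell precursors carry high levels of the microRNAs made from the miR-144/451 cluster, which lower the output of messages with a match to their seed.

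MicroRNA and promoter sequences were set beside the expression data, because 2 of the 4 genotypes lack the microRNAs and 2 lack the transcription factor. The mature strands that gave the seed matches searched are shown first, from RefSeq for GRCm38.p6, with the seed (bases 2 to 8) in capitals. Both lie on the plus strand of chromosome 11, miR-144-3p at chr11:78073047-78073066 and miR-451a at chr11:78073186-78073207.

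miR-144-3p: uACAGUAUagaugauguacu
miR-451a: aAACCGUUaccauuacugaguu

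A match to the miR-144-3p seed (ATACTGT) or to the miR-451a seed (AACGGTT) was found in the longest annotated 3' UTR of 0 of the 10 genes, and so was a match to the seed of miR-144-5p (TGATATC). These UTRs, from GENCODE M21, were 66 to 2169 bases long. Of 20987 genes with an annotated 3' UTR, 11.9% held the first match, 1.7% the other and 6.1% the match for miR-144-5p. The absence says only that these letters are not in these windows.

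Promoter windows of 300 bases, from 250 before to 50 after a start site, were given for 8 of the 10 genes and not for Gsta4 or Abcc1. They were searched on both strands for TGACNNNGC, the core of the antioxidant response element, and for TGANTCA, the core bound by NF-E2 and AP-1, which a response element can overlap. They were also searched for the GATA motif AGATAA. Of 32851 promoters of this length in RefSeq, 12.4% held the first, 7.8% the second and 11.2% the third. The windows of Gstm5 and Abcc4 are shown because these genes were higher in cells without the cluster, with the matches in capitals. The Gstm5 window is chr3:107895604-107895903 on the plus strand and the Abcc4 window chr14:118706170-118706469 on the minus strand (RefSeq, GRCm38.p6).

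Gstm5: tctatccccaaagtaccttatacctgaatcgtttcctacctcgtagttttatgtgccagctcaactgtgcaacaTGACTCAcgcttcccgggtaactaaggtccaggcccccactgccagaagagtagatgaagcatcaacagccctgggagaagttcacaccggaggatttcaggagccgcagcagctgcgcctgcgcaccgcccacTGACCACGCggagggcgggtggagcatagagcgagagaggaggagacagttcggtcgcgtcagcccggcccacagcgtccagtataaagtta
Abcc4: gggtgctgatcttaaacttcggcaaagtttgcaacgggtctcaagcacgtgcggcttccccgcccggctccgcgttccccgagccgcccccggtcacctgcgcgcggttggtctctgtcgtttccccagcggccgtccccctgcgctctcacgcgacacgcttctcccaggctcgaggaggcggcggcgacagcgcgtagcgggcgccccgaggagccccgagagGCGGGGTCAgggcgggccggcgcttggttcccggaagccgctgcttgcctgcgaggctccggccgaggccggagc

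The Gstm5 window held both TGACTCA, 176 bases before the start site, and TGACCACGC, 42 bases before it. The Abcc4 window held GCGGGGTCA, the reverse complement of a match to TGACNNNGC, 25 bases before the start. The other Abcc4 window held TGACTCTGC. Among the other genes, Gstp1 held TGAGTCA and Mgst1 held GCACGGTCA, and no member's window held AGATAA. A match is a description of the letters and not evidence of binding.

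Libraries held 13087827 to 15131036 counts. Mir144 had 9 to 17 counts in each library with the cluster and 0 in each of the 5 libraries labelled as lacking it, which at this depth allows up to 3 counts per library. The whole-gene count of Nfe2l2, which encodes Nrf2, was 46.1 to 62.7 CPM (counts per 1e6 of TMM-scaled library size) in the 6 libraries labelled as lacking Nrf2 and 58.2 to 86.1 in the other 4. It does not show the deleted part and so does not check those labels. Counts of Xist and Y-linked genes put 3 libraries as female (double-null replicate 3 and the wild type pair) and 7 as male, so a single null against wild type cannot be told apart from male against female. Double-null alone held both sexes, so a term for sex in the fit rests on that genotype. A call lost with that term cannot show whether sex mattered. The 12 erythroblast markers, globins among them, summed to 64826 to 109030 CPM with none at 0.

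Per length, the glutathione transferases spanned a wide range. On the deposited FPKM scale, a level per length of gene, Mgst3 had a mean of 247.5 over the 10 libraries (198 to 293), above 99.5% of 27087 genes. Gstm5 followed at 38.8 (10.3 to 68.5) and Gstp1 at 11.1 (4.71 to 23.5). Gsto1 (7.02), Abcc4 (5.56), Gstm1 (4.94), Ephx1 (3.34), Mgst1 (1.97) and Abcc1 (1.62) came next, and Gsta4 was lowest at 0.651. Mgst3 alone was set apart: the ranges of all other neighbours in this order overlapped over the 4 genotypes together.

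**Figure D1:**
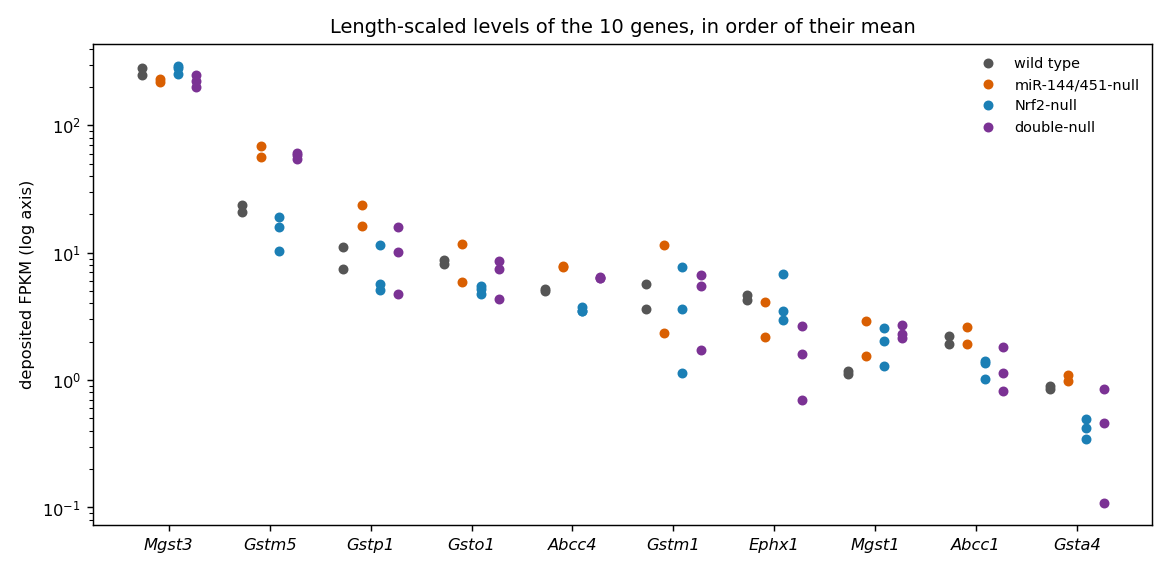
Deposited FPKM of the 10 genes on a log axis, with each point a library coloured by genotype and genes in order of their mean over the 10 libraries. Mgst3 lies between 198 and 293 in each library, above the highest Gstm5 value of 68.5.

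Gstm5, a mu-class transferase, had the largest fold change of the calls among the 10 genes. Its level was 24.1 and 32.3 CPM in wild type libraries, 83.6 and 60.7 in miR-144/451-null, 20.8, 25.6 and 14.3 in Nrf2-null, and 75.5, 78.1 and 77.2 in double-null libraries. Each of the 5 libraries without the cluster lay above each of the 5 with it, whatever the Nrf2 genotype. With Nrf2 present, loss of the cluster went with a 2.56-fold higher level (log2 fold change 1.36 ± 0.25 SE, 95% interval 0.80 to 1.92, adjusted p = 0.0149, edgeR quasi-likelihood test). With Nrf2 absent the rise was 3.80-fold (1.93 ± 0.21, 1.46 to 2.39, adjusted p = 0.000158).

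The Gstm5 rise without Nrf2 kept its call in each of 19 other settings (log2 fold change 1.73 to 2.13). The rise with Nrf2 present lost it with a term for sex (1.37, adjusted p = 0.291) and without wild type replicate 1 (1.17, 0.119), wild type replicate 3 (1.59, 0.0764) or miR-144/451-null replicate 1 (1.11, 0.0963). The counting strand is not given, and 11.1% of the 31-mers of Gstm5 also occur in other genes. Matches summed over transcripts were most numerous in 4933431E20Rik, on the opposite strand. That gene was at 1.30 to 8.48 CPM, and its log2 fold change was 1.12 ± 0.52 (adjusted p = 0.282) with Nrf2 and 1.30 ± 0.43 (adjusted p = 0.0447, edgeR) without. The part of these shared reads in the Gstm5 values was not tested.

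Gstm1, another mu-class transferase, varied more between replicates than between genotypes. It was at 4.80 and 8.96 CPM in wild type libraries, 3.28 and 14.4 in miR-144/451-null, 5.45, 11.7 and 1.84 in Nrf2-null, and 10.6, 8.36 and 2.52 in double-null libraries. The coefficient of variation within a genotype was 42.8% to 88.8%, and all 4 pairs of genotypes overlapped. The interval for loss of the cluster with Nrf2 present ran from -1.70 to 2.45 on the log2 scale, so changes of several-fold in either direction were not detectable. Of its 31-mers, 28.8% occur in other genes. The gene with the most matches, summed over transcripts, was the pseudogene Gstm2-ps1, which had 0 to 7 counts. The part held by each gene was not counted.

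Gstp1, the pi-class transferase, was at 5.04 and 8.96 CPM in wild type libraries and at 11.7 and 15.1 in those of miR-144/451-null, which did not overlap. It was at 3.90, 4.44 and 9.49 in Nrf2-null and 3.87, 12.5 and 7.64 in double-null libraries, which did. The log2 fold change was 0.94 ± 0.55 (adjusted p = 0.424) with Nrf2 present and 0.43 ± 0.46 (adjusted p = 0.516, edgeR) without. Gstp1 shares 38.5% of its 31-mers with other genes, so its own count is uncertain. Summed over transcripts, the most matches were in Gstp2 (1 to 21 counts).

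Gsta4, an alpha-class enzyme that acts on the lipid peroxidation product 4-hydroxynonenal, had 2 to 18 counts per library. Its level was 0.971 and 1.22 CPM in wild type libraries, 1.31 and 1.06 in miR-144/451-null, 0.538, 0.451 and 0.689 in Nrf2-null, and 0.149, 0.608 and 1.08 in double-null libraries. All 3 Nrf2-null libraries were below both wild type libraries, and averaged over cluster status the difference on Nrf2 loss was -0.94 ± 0.44 (adjusted p = 0.278, edgeR). Gsto1, the omega-class member, which reduces rather than conjugates many of its substrates, was at 15.5 and 17.2 CPM in wild type and 10.4, 11.1 and 10.3 in Nrf2-null libraries. It was at 11.1 and 19.4 in miR-144/451-null and 9.22, 17.6 and 14.6 in double-null libraries. Wild type and Nrf2-null did not overlap, yet the difference of -0.63 ± 0.29 missed the threshold (adjusted p = 0.418, edgeR).

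The microsomal transferases are membrane enzymes with glutathione transferase and peroxidase activity. Mgst3, the most abundant of the 10 genes per length, was at 246 and 327 CPM in wild type libraries, 243 and 203 in miR-144/451-null, 314, 334 and 303 in Nrf2-null, and 265, 227 and 270 in double-null libraries. Groups without the cluster lay below their counterparts with it, without overlap, by -0.36 ± 0.17 with Nrf2 (adjusted p = 0.304) and -0.32 ± 0.14 without (adjusted p = 0.115, edgeR). Mgst1 was at 2.00 and 2.52 CPM in wild type and between 2.83 and 5.41 in the 8 other libraries. Its difference between Nrf2-null and wild type was 0.87 ± 0.37 (adjusted p = 0.391), and none of its comparisons passed the edgeR test.

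**Figure D2:**
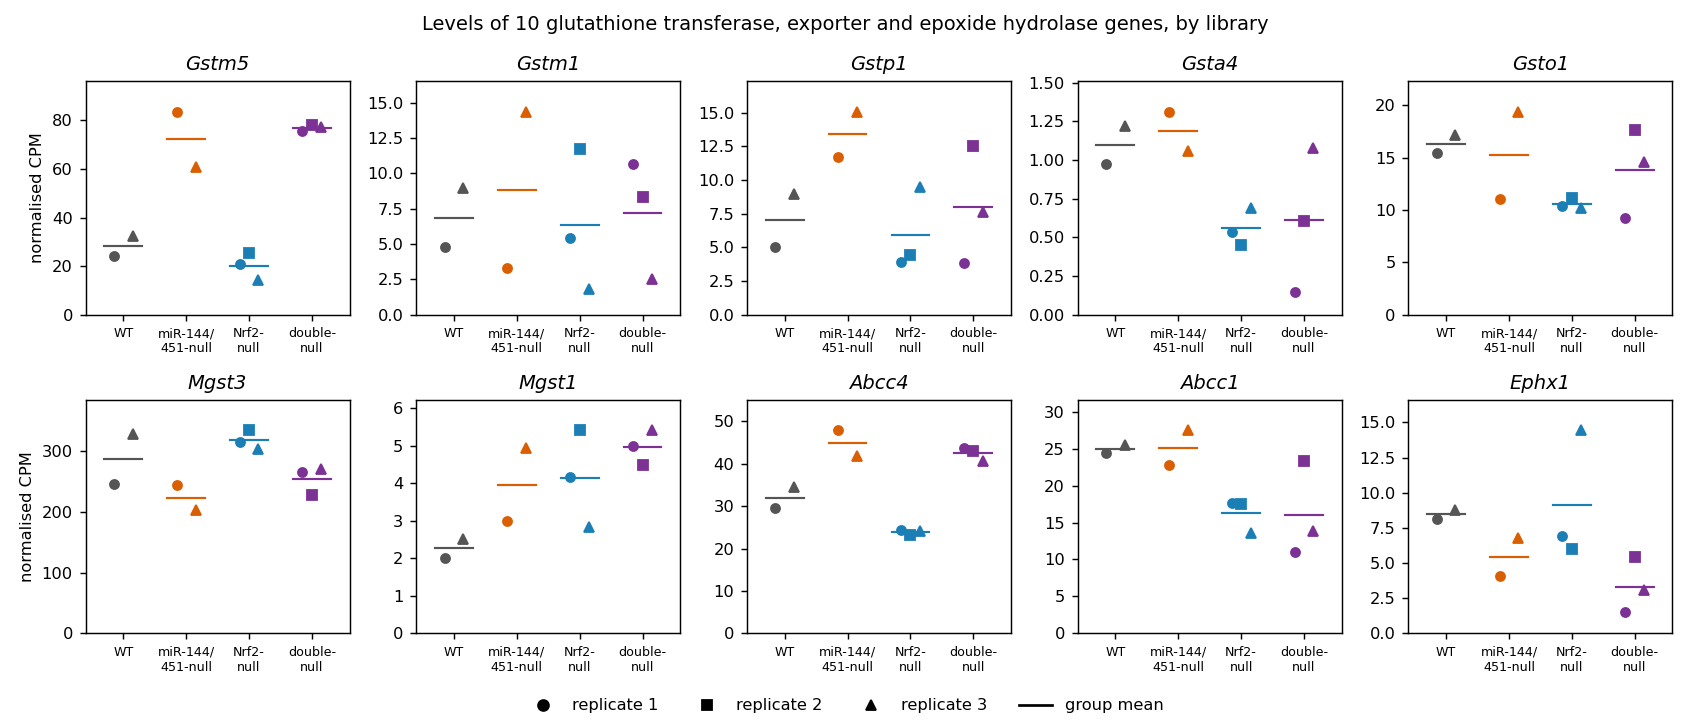
TMM-normalised CPM of each gene in each library, with 1 panel per gene, a symbol per replicate number and a line at the mean of each genotype; each vertical axis starts at 0 and has its own scale. Gstm5 and Abcc4 are higher in each library of the 2 genotypes without the cluster than in each library with it. How many of all genes split this way was not counted. Gstm1 spreads as widely within a genotype as between them.

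Abcc4 (MRP4), which exports conjugates and cyclic nucleotides, also differed by cluster status. It was at 29.6 and 34.5 CPM in wild type libraries, 47.9 and 41.8 in miR-144/451-null, 24.4, 23.2 and 24.2 in Nrf2-null, and 43.7, 43.1 and 40.6 in double-null libraries. All 5 libraries without the cluster were above all 5 with it, a split that was not counted over all genes. Replicates were within 10.8% (coefficient of variation) in each genotype. Without Nrf2 the level rose 1.78-fold on loss of the cluster (log2 fold change 0.83 ± 0.12, adjusted p = 0.000779), a call kept in each of 19 other settings (0.81 to 0.88). With Nrf2 present the difference was 1.40-fold (0.49 ± 0.15) and missed the threshold (adjusted p = 0.0918), and it passed in 1 of 18 other settings, the one without TMM factors (0.61, adjusted p = 0.0435, edgeR).

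Abcc1 (MRP1), an exporter of glutathione conjugates such as leukotriene C4, showed no difference by cluster status past the test. It was at 24.4 and 25.5 CPM in wild type libraries, 22.8 and 27.5 in miR-144/451-null, 17.6, 17.5 and 13.6 in Nrf2-null, and 11.0, 23.3 and 13.9 in double-null libraries. All Nrf2-null libraries were below all wild type libraries, while double-null replicate 2 fell within the miR-144/451-null range. The difference on Nrf2 loss was -0.62 ± 0.27 with the cluster (adjusted p = 0.403) and -0.65 ± 0.27 without it (adjusted p = 0.444). Averaged over cluster status it was -0.63 ± 0.19 (adjusted p = 0.148), and without double-null replicate 2 it was -0.81 (adjusted p = 0.0354, edgeR).

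Ephx1, the microsomal epoxide hydrolase, was the 1 member called lower on loss of the cluster. It was at 8.13 and 8.80 CPM in wild type libraries, 4.09 and 6.81 in miR-144/451-null, 6.93, 6.01 and 14.5 in Nrf2-null, and 1.49, 5.40 and 3.10 in double-null libraries. Without Nrf2 it was 2.74-fold lower on loss of the cluster (log2 fold change -1.46 ± 0.47, adjusted p = 0.0399), and with Nrf2 present the difference was -0.63 ± 0.55 (adjusted p = 0.618, edgeR). The highest level was in Nrf2-null replicate 3, without which the difference was -0.96 (adjusted p = 0.158). The call was also lost in 8 other settings, among them a term for sex (-1.41, 0.112), the male libraries alone (-1.39, 0.172) and, one at a time, without wild type replicate 1 or 3, Nrf2-null replicate 1, or double-null replicate 1 or 3 (-1.10 to -1.62, 0.0523 to 0.128).

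Markers of other cell types differed between the same libraries. The 11 macrophage markers summed to 333 to 1073 CPM in Nrf2-null and 86.8 to 368 in double-null libraries, with the highest sum in Nrf2-null replicate 3 and none at 0. All 11 had a negative log2 fold change in double-null against Nrf2-null (median -1.425), and 7 had an unadjusted p under 0.05 (edgeR). The share of all genes with such a p was not counted. Of the 11, 1, Siglec1, passed the test, lower in double-null. The 9 B cell markers summed to 469 to 594 CPM in Nrf2-null and 109 to 198 in double-null libraries, and all 9 were lower. The 11 neutrophil markers summed to 207 to 1340 and 1254 to 1340 CPM, with 0 of 11 past the test. Of the 8 megakaryocyte markers, summing to 70.9 to 108 CPM in Nrf2-null and 149 to 199 in double-null libraries, Itga2b and Gp1bb were higher and Gp9 lower, and Gp1bb was at 0 in Nrf2-null replicate 3.

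In miR-144/451-null and wild type the sums were 150 to 273 and 193 to 204 CPM for macrophages, 242 to 531 and 664 to 1069.5 for B cells, 406 to 1030 and 472 to 511 for neutrophils and 131 to 185 and 90.6 to 127 for megakaryocytes. None of these 39 markers passed the test there. All 9 B cell markers had a negative log2 fold change (median -1.062), and the groups did not overlap for 8. All 11 neutrophil markers had a positive one (median 0.548), with no overlap for 3. A positive fold change was found for 6 of 11 macrophage markers (no overlap for 1) and 6 of 8 megakaryocyte markers (no overlap for 4). Of all genes, 47% did not overlap. The 9 T and NK cell markers summed to 40.6 to 57.3 CPM in Nrf2-null and 13.9 to 47.4 in double-null libraries; all 9 had a negative log2 fold change (median -0.87), and 1, Gzma, passed the test, lower in double-null. They summed to 36.0 to 57.6 in wild type libraries and 24.4 to 44.5 in those of miR-144/451-null, with 0 of 9 past the test. The 7 stromal and endothelial markers summed to 23.7 to 28.1 CPM in Nrf2-null, 9.96 to 20.3 in double-null, 30.2 to 31.4 in wild type and 12.7 to 26.2 in miR-144/451-null libraries, with Dcn at 0 in 6 of the 10. The 7 mast cell and basophil markers summed to 0.689 to 18.8 CPM over all libraries, with Mcpt4 at 0 in 8. Only 2 of the 7 stromal and endothelial markers and 4 of the 7 mast cell and basophil markers passed the filter on low counts. None of those passed the test on loss of the cluster. Of the 12 erythroblast markers, 2 were called on loss of the cluster with Nrf2 present and 4 without it, all lower. The shares of all genes called were 4.63% and 27.3%. With Nrf2 present, 0 of the 12 had a positive log2 fold change (median -0.425), and without it 3 of the 12 did (median -0.333). Of all genes, 52% and 51% had a positive one. Klf1, an erythroid transcription factor, was lower without the cluster in both comparisons, and Epor, the erythropoietin receptor, in double-null against Nrf2-null. The part of these cells in the values of Gstm5, Abcc4 and Ephx1 was not tested, and in bulk samples fewer cells of a type and less RNA per cell cannot be told apart.

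**Figure D3:**
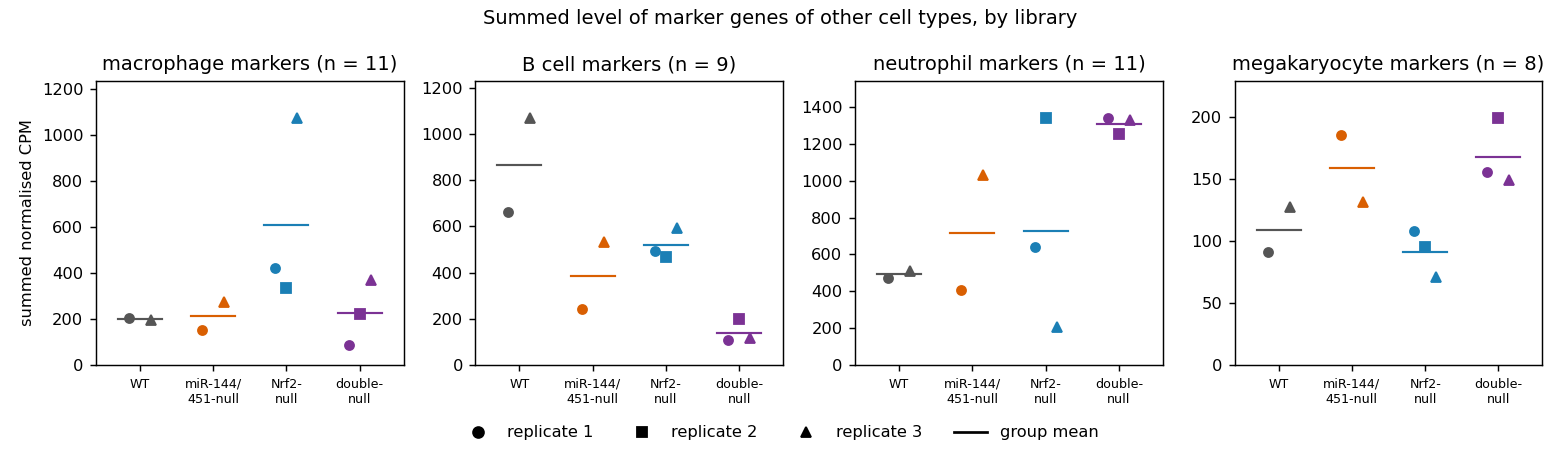
Summed TMM-normalised CPM of marker genes of 4 other cell types, with a symbol per library and a line at the mean of each genotype. Nrf2-null replicate 3 has the highest macrophage sum (1073), and the double-null libraries have the lowest B cell sums (109 to 198).

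All 10 genes passed the filter on low counts. With Nrf2 present, 1 of 10, Gstm5, was called on loss of the cluster, higher, beside 4.63% of all 14110 genes tested (2.4% higher), and the median log2 fold change of the 10 was 0.24 against 0.02 for all genes. Without Nrf2, 3 of 10 were called, Gstm5 and Abcc4 higher and Ephx1 lower, beside 27.3% of all genes (14.4% higher and 12.9% lower), so the share of the members was near that of all genes. Their median was 0.22 against 0.02. The 2 groups did not overlap for 6 of 10 genes in the first comparison and 4 of 10 in the other, where 47% and 45.2% of all genes did not.

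Loss of Nrf2 gave no call among the 10. In Nrf2-null against wild type 0 of 10 passed the edgeR test beside 0.191% of all genes, 3 had an unadjusted p under 0.05 (Abcc4, Abcc1 and Mgst1), and DESeq2 called 0. In double-null against miR-144/451-null 0 passed beside 0.0638%, 1 had such a p (Abcc1), and DESeq2 called 0. Averaged over cluster status 0 passed beside 0.588%, 3 had such a p (Abcc1, Abcc4 and Mgst1), and DESeq2 called 0. How many of all genes had an unadjusted p under 0.05 was not counted for any comparison, so these counts show no excess. The medians of the 10 were -0.33, -0.23 and -0.28, against -0.02 for all genes in each. Groups did not overlap for 5 of 10 genes in Nrf2-null against wild type and 0 of 10 in double-null against miR-144/451-null, beside 35.9% and 24.5% of all genes. The wild type pair was female by counts, so a difference by sex also enters the average over cluster status.

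The change on loss of the cluster did not differ detectably by Nrf2 genotype. In the interaction 0 of 10 genes passed the edgeR test beside 0.0638% of all genes, 0 had an unadjusted p under 0.05, and DESeq2 called 0. For Gstm5 the change without Nrf2 minus that with it was 0.57 ± 0.32 (95% interval -0.14 to 1.28, adjusted p = 0.999, edgeR). For Abcc4 it was 0.34 ± 0.19 (-0.08 to 0.76, adjusted p = 0.999, edgeR), and for Ephx1 the interval ran from -2.41 to 0.76. Each of these 3 intervals includes 0. The wild type pair was female and the miR-144/451-null pair male by counts, so a difference by sex enters the interaction. Between double-null and miR-144/451-null, Gstm5 differed by 0.09 (-0.40 to 0.59) and Abcc4 by -0.08 (-0.37 to 0.21).

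**Figure D4:**
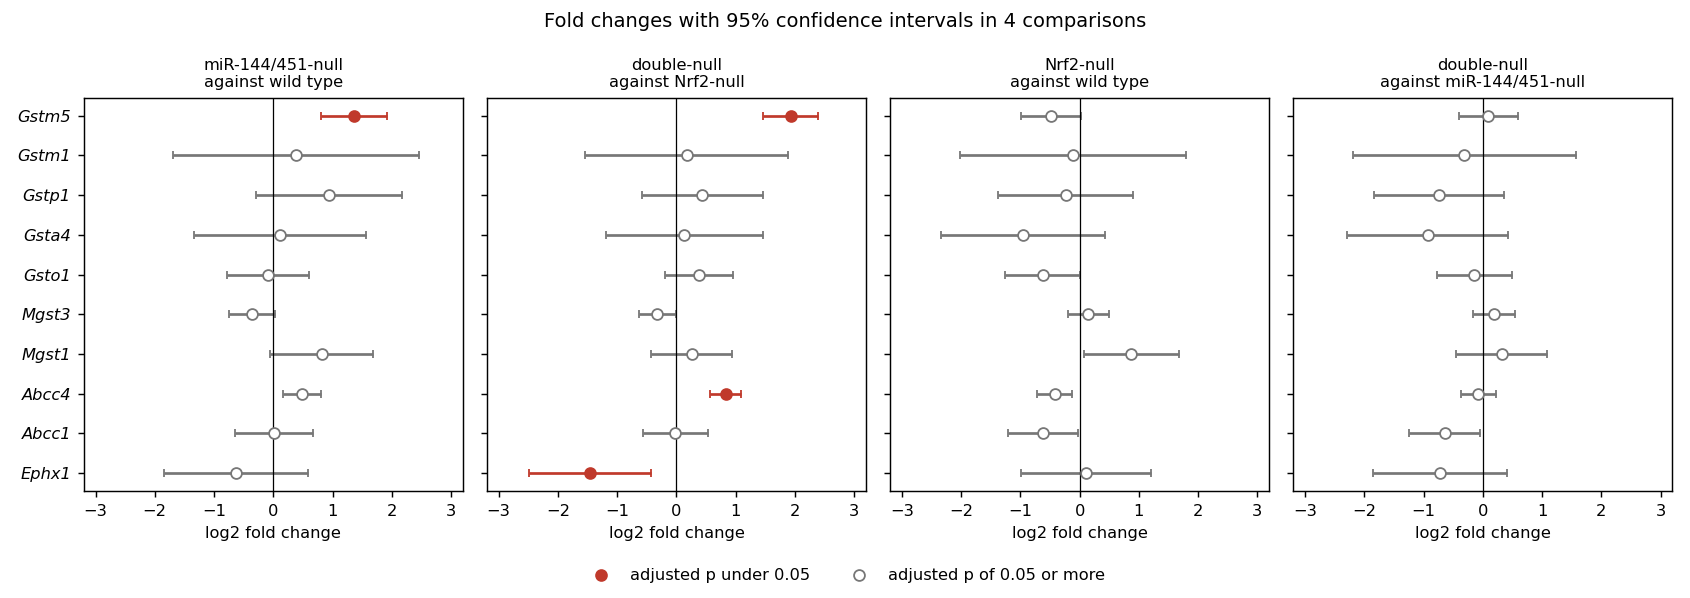
Log2 fold changes with 95% confidence intervals of the 10 genes in 4 comparisons; filled red points have an adjusted p under 0.05 over all 14110 genes. The filled points are Gstm5 in both comparisons of cluster loss, and Abcc4 and Ephx1 without Nrf2, and no point is filled for loss of Nrf2.

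Related genes of the same pathway were taken from lists by function. Of 22 other glutathione transferases, 9 were tested, 12 were under the filter and Gsta13 had no identifier in the table. Hpgds, a sigma-class member that makes prostaglandin D2, was the 1 called, lower in double-null (2.38, 3.34 and 3.67 CPM) than in Nrf2-null libraries (8.21, 6.17 and 15.1). The log2 fold change was -1.64 ± 0.34 (adjusted p = 0.00549, edgeR), kept in each of 19 other settings. Like Ephx1 it was highest in Nrf2-null replicate 3, the library with the highest macrophage sum. The part of other cells in the Hpgds values was not tested. All 9 had a negative fold change in that comparison, with a median of -0.42, and 0 of 9 were called with Nrf2 present (median -0.25).

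Of 10 other exporters 7 were tested, and Abcc5 (MRP5), an exporter of cyclic nucleotides, was the 1 called. It was at 49.3, 46.9 and 46.1 CPM in Nrf2-null and 81.9, 75.3 and 55.6 in double-null libraries, 0.58 ± 0.16 higher (adjusted p = 0.024), and the call was lost without any 1 of Nrf2-null replicates 1, 2 and 3 and double-null replicates 1 and 2 (0.46 to 0.75 over all 19 settings). With Nrf2 present it was at 53.5 and 38.8 CPM in wild type libraries and at 83.3 and 74.3 in those of miR-144/451-null. That was 0.77 ± 0.20 higher and missed the threshold (adjusted p = 0.0562, edgeR). The other 6 exporters were not called in either comparison. Of 4 other epoxide hydrolases 3 were tested with 0 called, and of 13 enzymes of conjugate breakdown 6 were tested with 0 called.

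All 6 genes of glutathione supply were tested. Gss, glutathione synthetase, was at 22.6, 27.1 and 18.1 CPM in Nrf2-null and 34.3, 41.9 and 44.9 in double-null libraries, without overlap. It was 0.84 ± 0.26 higher (adjusted p = 0.0336), and lost the call with a term for sex (0.75, 0.101), in male libraries alone (0.78, 0.0579) and without Nrf2-null replicate 1 or 3 or double-null replicate 2 or 3 (0.70 to 0.84, 0.0697 to 0.11). Gsr, glutathione reductase, was at 59.9 to 96.8 CPM in the 4 libraries with Nrf2 and 36.0 to 53.8 in the 6 without. Averaged over cluster status the difference on Nrf2 loss was -0.72 ± 0.14 (adjusted p = 0.0471), a call kept in 6 of 17 other settings. It was lost with the RLE factors (-0.70, 0.0547), with a term for sex (-0.75, 0.193), and without wild type replicate 3, miR-144/451-null replicate 3 or any 1 of the Nrf2-null or double-null libraries (-0.53 to -0.78, edgeR).

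**Figure D5:**
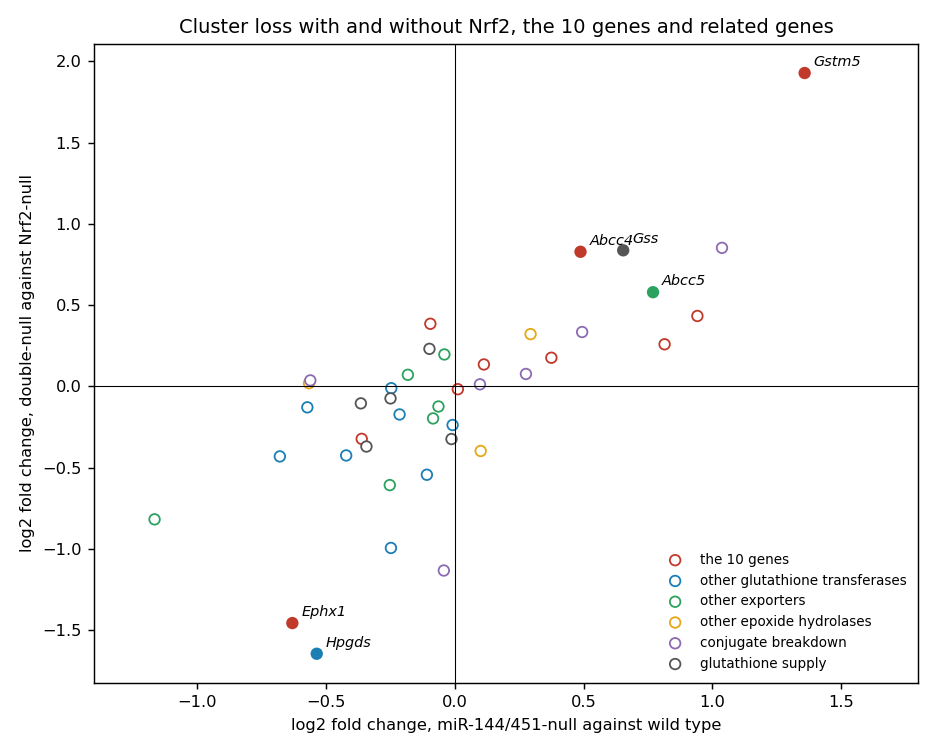
Log2 fold change on loss of the cluster with Nrf2 present (horizontal) and absent (vertical) for the 10 genes and the tested related genes, coloured by list; filled, named points passed the test without Nrf2. The comparisons share no library; Gstm5 lies farthest from the origin at 1.36 and 1.93, and Hpgds and Ephx1 are lowest on the vertical axis.

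Across the 10 libraries, Gstm5 and Abcc4 had a Pearson correlation of 0.944 on the log2 scale, and Gstm5 and Ephx1 one of -0.779. Among 8377 genes compared, those most like Gstm5 were Mllt3 (0.992), Sirt2 (0.991) and Ascc2 (0.989), and those most like Abcc4 were Plaa (0.985), Sec16a (0.984) and Srp14 (0.98). Those most like Ephx1 were Prkce (0.981), Laptm5 (0.979) and H2-Q7 (0.978). The 10 points share 4 genotypes, so these values describe group differences as much as the libraries within them.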

How the data were processed

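Levels come from a table of raw counts that the authors deposited, 1 column per library, and per-length levels from deposited FPKM files. The values show that the authors' FPKM are counts over the library total and over a gene length fixed across libraries. Tools in the submitters' processing notes are HISAT2 2.1.0, Bowtie2 2.2.3, TopHat2 and CASAVA, with the build mm9 and no roles. Counter, annotation and strand: not given in the sources used here. Per the labels' protocols, erythroblasts were isolated with Miltenyi Biotec beads. Symbols came from GENCODE M21 for 99.6% of identifiers.

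All 10 libraries entered 1 fit in edgeR 4.0.16 (R 4.3.3): TMM factors, filterByExpr, a coefficient per genotype, 6 residual degrees of freedom, robust quasi-likelihood test, two-sided, with Benjamini-Hochberg adjustment over 14110 genes and a threshold of 0.05. DESeq2 1.42.0 was an alternative. Errors of fold changes are standard errors. Neighbours in pattern were ranked by Pearson correlation of log2(CPM + 1) among genes with a mean of at least 5 CPM. The fit was also run on counts simulated from its own fitted means and dispersions, with an outcome not reported here. Those counts held no added difference by sex or cell type, so that run cannot test the fit for either. Replicates differed by more than sampling noise (chi-square per degree of freedom 16.15 to 28.28). Named genes were all 10 members, up to 4 called genes per related list and comparison, and 3 neighbours each for the 3 members with the smallest adjusted p. Members and lists were chosen with earlier results of these data known. Some marker genes are not reported here by name.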

Additional observations from a re-analysis of the deposited data

How the results depend on the processing

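With Nrf2 present, the number of the 10 genes called on loss of the cluster moved from 1 to 2 without TMM factors, to 0 with a term for sex, and ranged from 0 to 1 when each library was left out in turn (0 without wild type replicate 1, wild type replicate 3 or miR-144/451-null replicate 1). For Nrf2 loss averaged over cluster status it moved from 0 to 1 without the filter on low counts, and from 0 to 1 over the left-out libraries (1, Abcc1, without double-null replicate 2). Without Nrf2 it was 2 or 3 in each setting. No called fold change changed sign. Leaving out the TMM factors moved the median of all genes from 0.02 to 0.147 for loss of the cluster with Nrf2 present, and from -0.02 to -0.179 for averaged Nrf2 loss. In miR-144/451-null against wild type, DESeq2 called 1071 of the 11096 genes to which it gave an adjusted p. There edgeR called 653 of 14110, and a term for sex left 1. That term was estimated from double-null alone, the genotype with both sexes. The replicate numbers did not pair the libraries: deviations of same-numbered libraries correlated from -0.134 to 0.327. A fit with the replicate block kept 1 and 3 of the 10 genes called on loss of the cluster with and without Nrf2, and lost Gss (0.84, adjusted p = 0.0533) and Gsr (-0.76, adjusted p = 0.108, edgeR). Depth limits Gsta4, with 2 to 18 counts per library.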
